A study of Mus musculus with 6 samples.

Results

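Translation initiation and elongation factors were examined in mouse liver after a short and a long fast, as the genes whose symbol opens with Eif or Eef followed by a digit and that are annotated as protein-coding. Of the 55471 gene identifiers in the count tables, 68 met this rule, 55 of them initiation factor symbols and 13 elongation factor symbols. Bulk RNA sequencing had been made of liver from male wild-type C57BL/6J mice, an inbred strain, with no genetic change or drug named in the labels. After a 4 h fast 3 mice were taken, and after a 16 h fast 3 others, with 1 library each. No unfasted group was included, and the sources used here do not state the age of the mice. The title of the series concerns cholesterol transport in the liver, and the length of the fast is its only contrast.

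Translation of an mRNA starts when the small ribosomal subunit, loaded with initiator tRNA by eIF2, is guided by eIF1, eIF1A, eIF3 and eIF5 to a cap held by the eIF4 factors. The eIF4 factors are the cap binder eIF4E, the scaffold eIF4G and the helicase eIF4A with its helpers eIF4B and eIF4H. Elongation is carried by eEF1, which brings tRNA to the ribosome, and eEF2, which moves the ribosome along. Nutrient signals act on this machinery mostly through phosphorylation, by kinases of eIF2, by eIF4E-binding proteins under mTORC1 and by eEF2 kinase, which inhibits eEF2. RNA levels, measured here, do not show these phosphorylation states.

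Most of these transcripts differed little between the fasts, and a few regulators stood out. The transcript of eEF2 kinase, Eef2k, fell 2.03-fold with the longer fast. Those of the initiation factor eIF1A from the autosomal gene Eif1a and of an eIF4E-binding protein, Eif4ebp3, rose 1.86-fold and 3.16-fold. Another 7 initiation factor genes rose by smaller amounts, between 1.26-fold and 1.46-fold, among them the scaffolds Eif4g2 and Eif4g3 and the helicase helpers Eif4b and Eif4h. None of those 7 passed the test in all 11 alternative settings of the analysis, whereas Eef2k, Eif1a and Eif4ebp3 did. None of the 14 subunit genes of eIF3 and none of the eIF2B, eIF2 kinase, eIF4A or eEF1 genes passed the test. In either direction 15.6% of the 64 translation factor genes tested passed, against 18.7% of all tested genes. These results depended on replicate 3 of the 4 h livers, a library with lung transcripts. When it was left out the shares were 28.1% and 20.9%, and Eif2b3, Eif3b and Eif3c were among the genes that passed.

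Levels are given in CPM, the count of a gene relative to the total of its library, on the customary per-million scale, after library sizes were scaled by TMM, a factor that offsets differences in RNA makeup. Changes are log2 fold changes of 16 h over 4 h ± SE from edgeR's quasi-likelihood test, and a gene passed when its p was under 0.05 after Benjamini-Hochberg adjustment across the 13812 genes tested. Library depth ran from 15173653 to 26572532 counts assigned to genes. Among the 4 h livers, replicate 3 was set apart by principal component 2, where it scored -33.5 and its mates 14.0 and 26.5. All 8 lung markers were highest there, with a summed level of 188 CPM against 5.66 to 8.61 CPM elsewhere, and the 10 neutrophil markers summed to 16.0 CPM against 2.18 to 5.66 CPM. The hepatocyte markers summed to between 94330 and 107495 CPM in every library, but single markers differed between the fasts: of the 10, 5 rose, such as Tat (3.12-fold) and Cps1 (1.80-fold), and 2 fell, Ttr (1.88-fold) and Cyp2f2 (1.49-fold). The red cell markers summed to 148 to 175 CPM after 4 h and 53.4 to 99.1 CPM after 16 h without overlap, with Alas2 called lower. Alas2 alone was at 96.5 to 104 CPM after 4 h and 42.6 to 51.1 CPM after 16 h. The globin genes Hba-a1, Hba-a2, Hbb-bs and Hbb-bt did not pass, and their groups overlapped. Of the 6 stellate cell and fibroblast markers, Col1a1 and Col3a1 fell, the latter 3.25-fold, and the others did not pass. The sums of the 6 overlapped, at 168 to 255 CPM after 4 h and 129 to 197 CPM after 16 h. Of the 8 macrophage markers, Timd4 fell 1.81-fold and no other passed. The macrophage sum was 203 CPM in 4 h replicate 3 and 103 to 148 CPM elsewhere.

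Replicate 3 of the 4 h livers was the highest of the 6 libraries for 24 of 64 tested members (37.5%, against 27.8% of all tested genes) and the lowest for 13 (20.3%, against 26.7%). Replicate 2 of the 4 h livers was the lowest for 21 members (32.8%, against 15.3% of all tested genes). The part of other cell types in any result on the members was not tested. Leaving out 4 h replicate 3 made the change more positive for 45 of the 64 members and turned its sign for 11, none of which passed with or without that library: Eef1d, Eef1g, Eef2kmt, Eif1ad, Eif1b, Eif2b4, Eif2d, Eif2s2, Eif3d, Eif3k and Eif4e2. Such counts were not made over all tested genes. The median change went from 0.03 to 0.14 for the members and from -0.03 to -0.003 for all tested genes when that library was left out. In whole liver, fewer cells of a type and less RNA per cell cannot be told apart.

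Of the 68 members, 64 had enough counts to be tested. The other 4 were near or at the floor of detection. Eif4e1b, an egg-cell relative of the cap binder, had 0 of 125286659 counts over all libraries, which allows up to 0.0239 CPM at 3 counts. The methyltransferase gene Eef1akmt3 had 7 counts in all, the muscle and neuron form of elongation factor 1 alpha, Eef1a2, 11, and Eif5a2, the less common of the eIF5A genes, 27. Among the 64, 9 rose, 1 fell and 54 did not pass, so 15.6% were called, against 18.7% of all tested genes. With all libraries, the share that rose (9 of 64) was above the background of 9.17% of all tested genes. The share that fell (1 of 64) was below the background of 9.51%. The median change of the 64 was 0.03, against -0.03 over all tested genes, and the median size of change, regardless of direction, was 0.16 against 0.27. These sizes were not compared at matched levels, and the median level of the members was higher, at 13.8 against 2.84 CPM per kilobase of exon. Only Eef2k and Eif4ebp3 moved by a factor of 2 or more. The libraries of the 2 groups did not overlap for 21 members (32.8%), against 39.4% of all tested genes. Of these, 18 were higher after 16 h (28.1%, background 19.7%) and 3 were lower (4.69%, background 19.7%). These shares describe the list, which was not tested as a set.

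**Figure D1:**
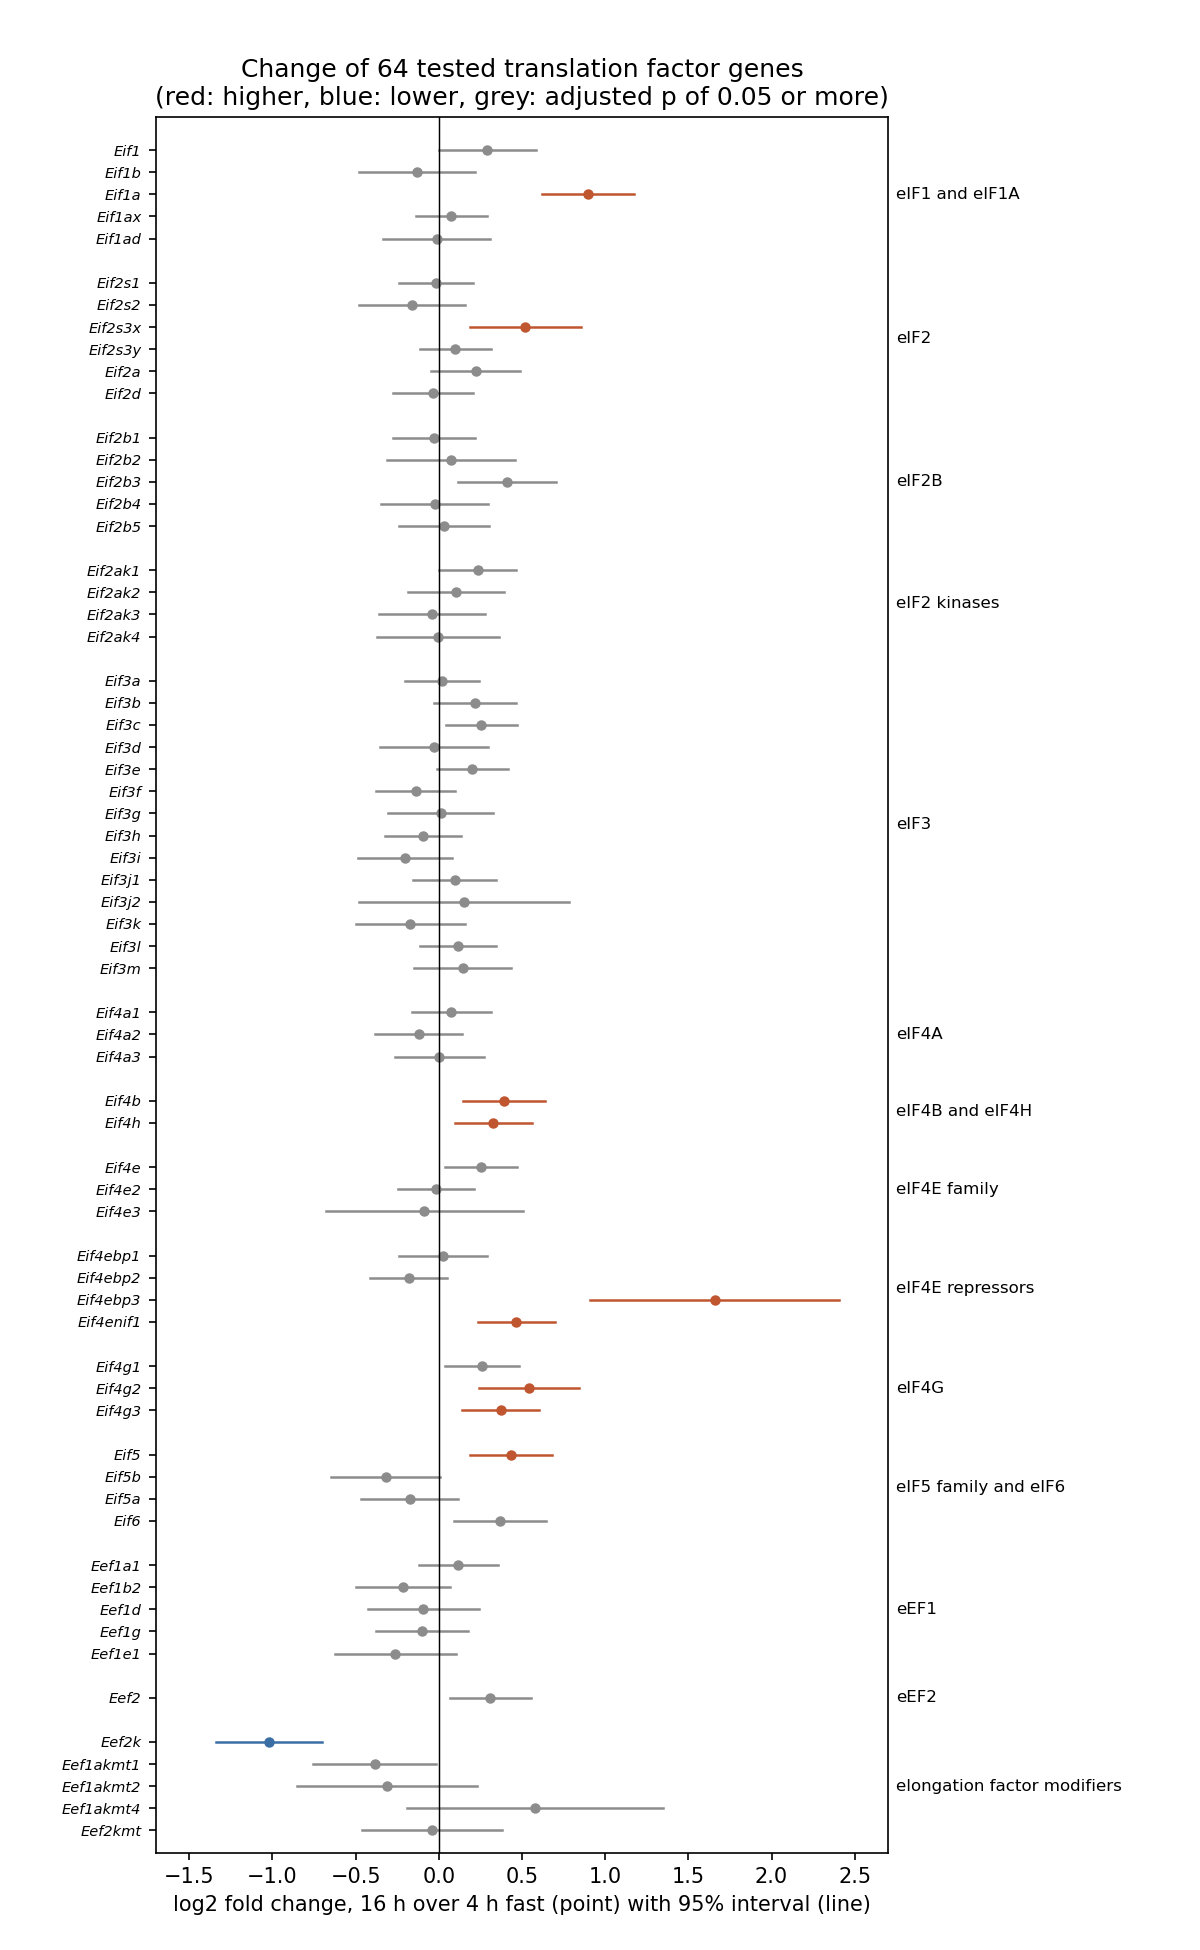
Log2 fold change of 16 h over 4 h (x axis, points) with the 95% interval (lines) for the 64 tested translation factor genes, grouped by role. Genes that rose are red, the gene that fell is blue and those that did not pass are grey. Most intervals cross 0, and Eif4ebp3 at 1.66 and Eef2k at -1.02 lie farthest out.

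As a class these genes were expressed well above the usual liver gene. Per kilobase of exon, their median level was 13.8 CPM per kb, against 2.84 CPM per kb for all tested genes. Eef1a1 ranked 37th of the 13812 at 1434 CPM per kb, Eef2 ranked 92nd at 510.2 CPM per kb, and Eif1 and Eif5a followed at 157 and 144 CPM per kb. At the other end stood Eef2k at 1.17, the methyltransferase gene Eef1akmt4 at 1.07 and Eif3j2 at 0.574 CPM per kb. In summed CPM the whole class made up between 10456 and 11021 CPM of each 4 h library and between 11551 and 12313 CPM of each 16 h library. The sums did not overlap, and their ratio of means was 1.11. Eef1a1 alone supplied between 29.8% and 33.4% of that sum.

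The factors that scan for the start codon were led in level by Eif1, which guards against starting at wrong codons. Eif1 stood at 284, 260.5 and 347 CPM in the 4 h livers and at 326, 408 and 357 CPM in the 16 h livers. The groups overlapped through 4 h replicate 3, and Eif1 did not pass (0.29 ± 0.13, edgeR adjusted p = 0.152), though it did without that library (0.43, edgeR adjusted p = 0.0134). Eif1a, on chromosome 18 at 46597701 to 46616456 of GRCm38, encodes eIF1A, which works with eIF1 in scanning. It was at 50.6, 46.6 and 39.9 CPM after 4 h and at 74.2, 94.7 and 86.6 CPM after 16 h. Every 16 h liver lay well above every 4 h liver, and the mean went from 45.7 ± 5.4 to 85.2 ± 10.3 CPM (SD, n = 3 each). The change was 0.90 ± 0.13 (95% interval 0.62 to 1.17, edgeR adjusted p = 7.97e-04).

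Mice carry another eIF1A gene on the X chromosome, Eif1ax, and it did not pass. Its libraries lay between 40.3 and 44.7 CPM in all 6 livers, with overlapping groups (0.07 ± 0.10, 95% interval -0.14 to 0.29, edgeR adjusted p = 0.623). Its mean was 41.1 ± 1.0 CPM after 4 h and 43.3 ± 1.5 CPM after 16 h. The difference between the changes of the 2 genes was not tested. Runs of 50 bases from Eif1a transcripts that also occur in transcripts of another gene made up 2.62% of its runs and 0% of those of Eif1ax, so reads of the 2 could mostly be told apart at that length. Eif1b, a near relative of Eif1, did not pass at 16.6 ± 3.7 and 15.2 ± 1.1 CPM (-0.13 ± 0.16, and 0.06 without 4 h replicate 3), nor did Eif1ad, which resembles eIF1A (-0.01 ± 0.15, and 0.15 without it), with 15.3% of its exon bases under the antisense gene Banf1.

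eIF2 carries the initiator tRNA and is the point on which stress kinases act. Eif2s1, the alpha subunit that these kinases phosphorylate, was at 39.7, 39.2 and 35.1 CPM after 4 h and at 35.8, 38.6 and 38.3 CPM after 16 h. The groups overlapped fully, and the interval of the change was narrow (-0.02 ± 0.10, 95% interval -0.24 to 0.21, edgeR adjusted p = 0.929). Eif2s2, the beta subunit, with the highest mean level per kb of the 6 eIF2 genes, stood at 106 CPM in all 3 of the 16 h livers, inside the 4 h range of 96.7 to 149 CPM whose top was replicate 3 (-0.16 ± 0.15, edgeR adjusted p = 0.466). Without that library its change was 0.04.

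The gamma subunit is encoded by a pair of genes on the sex chromosomes, Eif2s3x on X and Eif2s3y on Y, and both are active in males. Eif2s3x was at 28.7, 30.6 and 19.4 CPM after 4 h and at 37.2, 39.3 and 36.4 CPM after 16 h. The groups did not overlap, and 4 h replicate 3 was the lowest library by a wide margin. Eif2s3x passed with all libraries (0.52 ± 0.15, edgeR adjusted p = 0.0357). Its call did not survive leaving out any single 16 h library (edgeR adjusted p = 0.0871, 0.123 and 0.0887 for replicates 1, 2 and 3) or scaling by plain library totals (0.0627), while without 4 h replicate 3 the change was 0.36 and passed. Eif2s3y was the more abundant partner at 59.3, 62.9 and 64.7 CPM after 4 h and 63.8, 67.6 and 69.0 CPM after 16 h, with overlapping groups (0.10 ± 0.10, edgeR adjusted p = 0.510). The ratio of Eif2s3x to Eif2s3y was 0.484, 0.487 and 0.300 in the 4 h livers and 0.584, 0.581 and 0.528 in the 16 h livers. Of the 50-base runs of Eif2s3x, 34.6% also occur in the gene model Gm2223 and those of Eif2s3y in no other gene, so the level of Eif2s3x depends on how shared reads were placed. Eif2a and Eif2d, which can bring initiator tRNA without eIF2, did not pass (0.22 ± 0.12 and -0.04 ± 0.11).

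eIF2B recharges eIF2 with GTP and is the complex that phosphorylated eIF2 blocks. None of its 5 genes passed, with changes between -0.03 and 0.41. Eif2b5, its catalytic subunit and the highest per kb, was at 31.9, 33.3 and 41.2 CPM after 4 h and 34.1, 35.5 and 39.0 CPM after 16 h (0.03 ± 0.12). Eif2b3, the gamma subunit, came nearest, with 9.66, 8.95 and 9.76 CPM after 4 h and 11.1, 13.3 and 13.4 CPM after 16 h. Its groups did not overlap, yet the test was narrowly missed (0.41 ± 0.13, edgeR adjusted p = 0.0550), and it was passed in the other 5 libraries when 4 h replicate 3 was left out (0.44, edgeR adjusted p = 0.0395) and with the size factors of DESeq2 (edgeR adjusted p = 0.0492).

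The 4 kinases of eIF2 answer to heme (Eif2ak1), double-stranded RNA (Eif2ak2), unfolded proteins in the endoplasmic reticulum (Eif2ak3) and uncharged tRNA (Eif2ak4). None of them passed. Eif2ak1 was the most abundant per kb, at 38.8, 40.9 and 35.4 CPM after 4 h and 42.3, 45.8 and 47.1 CPM after 16 h, without overlap but short of the threshold (0.23 ± 0.10, edgeR adjusted p = 0.144). Eif2ak4, the amino acid sensor, had the same mean of 9.46 CPM in both groups (-0.01 ± 0.17, 95% interval -0.37 to 0.36, edgeR adjusted p = 0.985). For Eif2ak2 the change was 0.10 ± 0.13 and for Eif2ak3 -0.04 ± 0.15, with overlapping libraries.

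eIF3, the large assembly that holds the small subunit and recruits mRNA, had no gene that passed. Over its 14 genes the median change was 0.06, their changes ran from -0.20 to 0.26, and their summed level was 1142 ± 90.0 CPM after 4 h and 1188 ± 19 CPM after 16 h. Eif3h, the highest per kb, was at 116, 109 and 128 CPM after 4 h and at 109, 111 and 112 CPM after 16 h (-0.09 ± 0.10, edgeR adjusted p = 0.564). Eif3a, the largest scaffold subunit, was at 235 ± 3.2 and 238 ± 14 CPM (0.02 ± 0.10). Eif3c, another core subunit, was at 119, 119 and 120.0 CPM after 4 h and at 136, 147 and 145 CPM after 16 h. These groups did not overlap, but Eif3c missed the threshold (0.26 ± 0.10, edgeR adjusted p = 0.0931). Without 4 h replicate 3 it passed (0.27, edgeR adjusted p = 0.0372), as did the core subunit Eif3b (0.32, edgeR adjusted p = 0.0159, against 0.22 and 0.204 with all libraries), and DESeq2 called Eif3c too (adjusted p = 0.0409).

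Within eIF3, Eif3j2 can hardly be read apart from Eif3j1. Eif3j2, an intronless copy on chromosome 18, shares 90.8% of its 50-base runs with Eif3j1. Of the runs of Eif3j1, 36.6% occur in Eif3j2 and 50.9% in any other gene. Eif3j2 was counted at 22 to 37 reads per library, against 59.4 ± 3.9 CPM after 4 h and 63.4 ± 7.3 CPM after 16 h for Eif3j1. Eif3j1 also has 20.2% of its exon bases in overlap with other genes, and Eif3d has 43.3% under an antisense gene, so their levels are uncertain. Neither Eif3j1 (0.10 ± 0.11), Eif3j2 (0.15 ± 0.29) nor Eif3d (-0.03 ± 0.15) passed.

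Of the 9 genes that rose, 2 encode helpers of the eIF4A helicase, 2 encode eIF4G scaffolds and 2 belong to the repressors of eIF4E. The helicase genes themselves did not pass. Eif4a1, the most abundant helicase per kb, was at 269, 278 and 319.9 CPM after 4 h and at 298, 309.6 and 306 CPM after 16 h (0.08 ± 0.11, edgeR adjusted p = 0.665), and 28.4% of its 50-base runs occur in other genes. Eif4a2, a close relative, had a change of -0.12 ± 0.12, and Eif4a3, a part of the exon junction complex, one of 0.00 ± 0.12.

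Eif4b, whose protein stimulates the helicase and is a target of S6 kinase, was at 287, 263 and 238 CPM after 4 h and at 344, 367 and 322 CPM after 16 h. All 16 h livers were above all 4 h livers, and the gene rose 1.31-fold (0.39 ± 0.11, edgeR adjusted p = 0.0333). Leaving out 4 h replicate 2 ended the call (edgeR adjusted p = 0.0599), and so did leaving out 16 h replicate 1, 2 or 3 (0.0893, 0.138 and 0.0680) or using plain totals (0.0528). Eif4h, a related helper, was at 138, 136 and 146 CPM after 4 h and at 162, 182 and 184 CPM after 16 h, again without overlap (0.33 ± 0.10, edgeR adjusted p = 0.0484). That p was close to the threshold, and Eif4h kept its call without 4 h replicate 3, but not when 4 h replicate 1 or 2 was dropped (edgeR adjusted p = 0.0930 and 0.0944), when any 16 h replicate was (0.0626, 0.161 and 0.168 for 1, 2 and 3) or with plain totals (0.0505).

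The scaffold eIF4G ties the cap binder to the helicase and to eIF3. Its 3 genes were all higher after 16 h without overlap between groups, and 2 of them passed. Eif4g2 encodes a shorter relative that lacks the site for eIF4E and serves cap-independent translation. It was at 393, 402 and 286 CPM after 4 h and at 527, 550.3 and 499 CPM after 16 h, with 4 h replicate 3 the lowest (0.54 ± 0.14, 1.46-fold, edgeR adjusted p = 0.0190). Without 4 h replicate 3 the change was 0.41 and still passed, but dropping any 16 h library ended the call (edgeR adjusted p = 0.0580, 0.0827 and 0.0504 for replicates 1, 2 and 3). Eif4g3, a full-length form, was at 73.6, 78.1 and 71.1 CPM after 4 h and at 87.4, 102 and 98.7 CPM after 16 h (0.37 ± 0.11, edgeR adjusted p = 0.0305), and it lost its call without 4 h replicate 1 (0.0683) or 16 h replicate 2 or 3 (0.133 and 0.114). Eif4g1, the main form and the highest per kb, was at 422, 449 and 447 CPM after 4 h and at 508, 521 and 549 CPM after 16 h. It did not pass (0.26 ± 0.10, 95% interval 0.04 to 0.48, edgeR adjusted p = 0.100), except without 4 h replicate 3 (0.28, edgeR adjusted p = 0.0423) and with DESeq2 (adjusted p = 0.0293). Summed over the 3 genes, the level went from 874 ± 64 to 1147 ± 26 CPM.

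Eif4e, the cap binder, was at 36.4, 39.1 and 35.9 CPM after 4 h and at 43.0, 45.8 and 44.0 CPM after 16 h. The groups did not overlap, and the gene did not pass (0.25 ± 0.10, 95% interval 0.04 to 0.47, edgeR adjusted p = 0.0971). Its relatives Eif4e2, a cap binder used in repression, and Eif4e3 did not pass either (-0.02 ± 0.10 and -0.09 ± 0.27).

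The proteins that hold eIF4E back were split. Eif4ebp2, the most abundant of the eIF4E-binding protein genes in these livers, was at 306, 304 and 274 CPM after 4 h and at 265, 268 and 247 CPM after 16 h. All 16 h livers were lower, and the change did not pass (-0.18 ± 0.10, 95% interval -0.41 to 0.05, edgeR adjusted p = 0.252). Eif4ebp1, the best known of them as a target of mTORC1, was at 46.2, 46.3 and 59.9 CPM after 4 h and at 50.1, 53.5 and 51.7 CPM after 16 h (0.03 ± 0.12, 95% interval -0.24 to 0.29, edgeR adjusted p = 0.901). The ratio of Eif4ebp2 to Eif4e was 8.41, 7.78 and 7.63 after 4 h and 6.16, 5.85 and 5.62 after 16 h.

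Eif4ebp3 was the member with the largest rise. It lies on chromosome 18 at 36664060 to 36665917 of GRCm38 and stood at 2.02, 2.25 and 1.10 CPM after 4 h and at 4.58, 8.55 and 4.03 CPM after 16 h. The groups did not overlap, and the 16 h livers were unequal, with replicate 2 the highest. The change was 1.66 ± 0.34 (95% interval 0.91 to 2.41, edgeR adjusted p = 0.00722) and lay between 1.27 and 1.87 under the 11 alternative settings. The counts behind it were 55, 35 and 21 reads after 4 h and 103, 142 and 98 after 16 h. An overlapping gene model on the same strand, AC115631.1, covers 67.3% of the exon bases of Eif4ebp3 and was counted as a gene of its own in the deposited tables. Reads that matched more than 1 gene were set aside as ambiguous in those tables, so the level of Eif4ebp3 may be too low. Eif4enif1, which carries eIF4E into the nucleus and into processing bodies, was at 21.2, 21.4 and 22.1 CPM after 4 h and at 31.7, 27.7 and 29.9 CPM after 16 h (0.47 ± 0.11, 1.38-fold, edgeR adjusted p = 0.0111). The call ended when 16 h replicate 1 (edgeR adjusted p = 0.0536) or 3 (0.0514) was dropped.

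**Figure D2:**
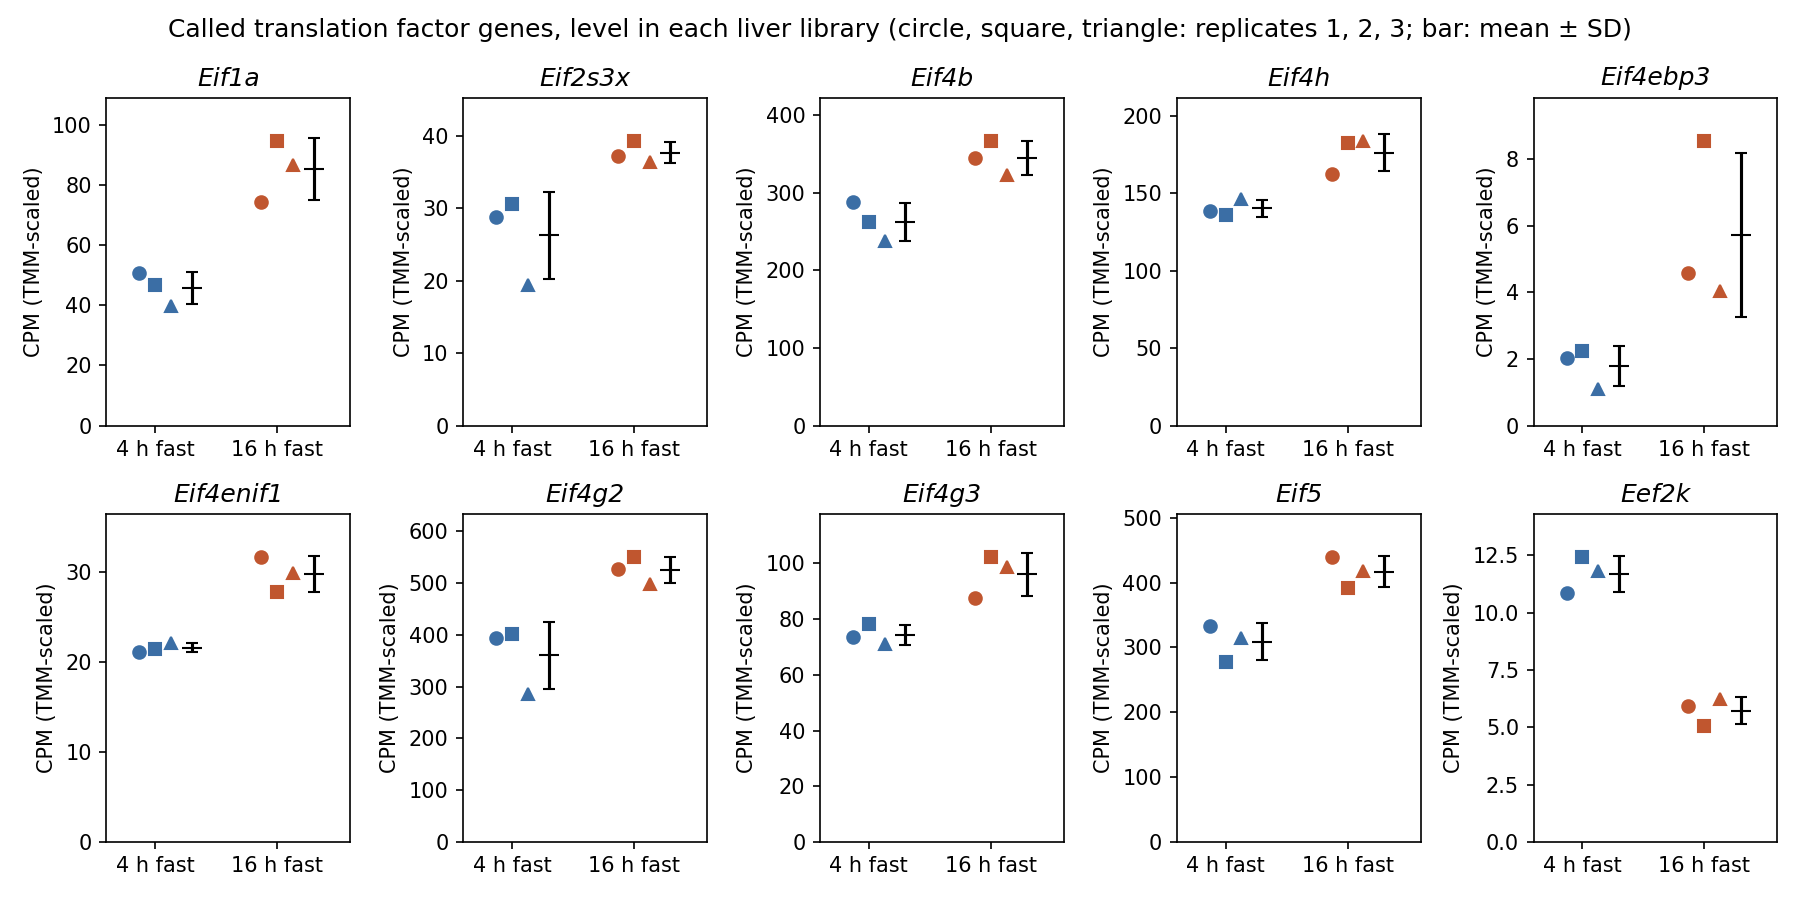
Level in CPM (y axis from 0) of the 10 genes that passed the test, in the 3 livers of each fast (circle, square and triangle for replicates 1, 2 and 3), with mean ± SD as a black bar. In each panel the groups do not overlap, Eef2k is the single gene with the higher 4 h values, and the triangle of the 4 h group is low for Eif2s3x and Eif4g2.

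Among the factors that act at the end of initiation, 1 of 4 tested genes rose. Eif5, which triggers GTP hydrolysis on eIF2 at the start codon, was at 333, 277 and 315 CPM after 4 h and at 439, 392 and 418 CPM after 16 h. It rose 1.35-fold without overlap (0.43 ± 0.11, edgeR adjusted p = 0.0212), and its call ended when 4 h replicate 2 (0.0603) or any 16 h replicate (0.0797, 0.0518 and 0.0769 for 1, 2 and 3) was dropped. Eif6, which keeps the large ribosomal subunit from joining too early, was at 47.5, 45.1 and 59.8 CPM after 4 h and at 60.2, 64.5 and 71.9 CPM after 16 h. It missed the threshold (0.37 ± 0.13, edgeR adjusted p = 0.0658) but passed when 4 h replicate 3 was dropped (0.51, edgeR adjusted p = 0.00263), with DESeq2 (adjusted p = 0.0366) and with no filter on low counts (edgeR adjusted p = 0.0209).

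Eif5b, which joins the ribosomal subunits, was at 124, 133 and 188 CPM after 4 h and 115, 128 and 114 CPM after 16 h, with 4 h replicate 3 high (-0.32 ± 0.15, edgeR adjusted p = 0.161), and its change was -0.10 without that library. It has 16.8% of its exon bases under the antisense gene Rev1. Eif5a, the highest per kb of this group, carries the modified lysine hypusine and helps the ribosome through difficult sequences. It was at 314, 342 and 429 CPM after 4 h and at 303, 309 and 349 CPM after 16 h, with wide overlap (-0.17 ± 0.13, edgeR adjusted p = 0.385), and its change was -0.02 without 4 h replicate 3.

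Among the elongation factors, Eef1a1 delivers tRNA to the ribosome and was by far the most abundant member. It was at 3520.3, 3495 and 3279 CPM after 4 h and at 3538, 3947 and 3668 CPM after 16 h. The 16 h livers were higher by a narrow gap, and the gene did not pass (0.12 ± 0.11, 95% interval -0.12 to 0.35, edgeR adjusted p = 0.488). Since 40.4% of its 50-base runs recur in 21 other annotated genes, its level depends on how shared reads were placed. The subunits that recharge it with GTP did not pass: Eef1b2 (-0.22 ± 0.13), Eef1d (-0.09 ± 0.15) and Eef1g (-0.10 ± 0.13) were each highest in 4 h replicate 3. Without that library their changes were -0.05, 0.14 and 0.05. Of the 50-base runs of Eef1g, 44.2% occur in other genes, and 40.2% in the gene model Gm4366, so its level has the same limit. Eef1e1, a part of the tRNA synthetase complex, had a change of -0.26 ± 0.17.

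Eef2, the translocase, was at 1501, 1392 and 1651 CPM after 4 h and at 1828, 1907 and 1897 CPM after 16 h. All 16 h livers were above all 4 h livers, but the change of 0.31 ± 0.11 (95% interval 0.07 to 0.55) missed the threshold (edgeR adjusted p = 0.0740). It passed without 4 h replicate 3 (0.39, edgeR adjusted p = 0.0129) and with DESeq2 (adjusted p = 0.0128).

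Many mRNAs of the translation machinery begin with a C and a stretch of C and T, the terminal oligopyrimidine motif through which mTORC1 controls their translation. The bases around the annotated starts of 6 members, 10 before and 20 after, are shown to compare the main elongation factors with an eIF3 subunit, a called helper and the X and Y pair. Capitals mark the bases from the annotated start on, and the sequences are from RefSeq (GRCm38.p6).
Eef1a1 (chr9:78481705-78481734, minus strand): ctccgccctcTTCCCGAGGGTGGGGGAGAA
Eef2 (chr10:81176621-81176650, plus strand): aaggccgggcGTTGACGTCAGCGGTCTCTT
Eif3f (chr7:108934405-108934434, plus strand): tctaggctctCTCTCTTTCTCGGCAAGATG
Eif4b (chr15:102073763-102073792, plus strand): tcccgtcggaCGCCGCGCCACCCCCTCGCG
Eif2s3x (chrX:94212632-94212661, minus strand): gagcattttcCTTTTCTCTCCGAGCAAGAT
Eif2s3y (chrY:1010585-1010614, plus strand): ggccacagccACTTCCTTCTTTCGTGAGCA

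The longest run that opened with C and held only C and T had 10 bases in Eef1a1, 15 in Eif3f and 12 in both Eif2s3x and Eif2s3y. In Eef2 it had 5 bases, cut by the end of the window, and in Eif4b 7. The run spanned the start in Eef1a1, in Eif3f, which did not pass (-0.14 ± 0.11), and in Eif2s3x, which rose. Such a run of at least 5 bases was found in the 30-base window of 21 of the 52 members with a listed promoter, in 25 of their 67 windows, against 35.8% of all 32851 windows. Annotated starts can be off by some bases, and a run is a description of the letters only.

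The single gene that fell was Eef2k, which encodes the kinase that phosphorylates eEF2 and slows elongation when energy or amino acids are short. It lies on chromosome 7 at 120842831 to 120907450 of GRCm38. Its level was 10.8, 12.4 and 11.8 CPM after 4 h and 5.91, 5.06 and 6.21 CPM after 16 h. The groups were far apart compared with their spread, with 11.7 ± 0.80 CPM against 5.72 ± 0.60 CPM (SD, n = 3 each). The change was -1.02 ± 0.15 (95% interval -1.34 to -0.70, edgeR adjusted p = 8.13e-04), and it stayed between -1.08 and -0.94 under the 11 alternative settings. Of its 50-base runs 0.934% occur in another gene, and 1.36% of its exon bases overlap one.

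The 250 bases before the upstream-most of the 3 starts that RefSeq lists for Eef2k are shown because this gene had the firmest fall, with the E-box CACGTG in capitals (GRCm38.p6, chr7:120842581-120842830, plus strand).
Eef2k: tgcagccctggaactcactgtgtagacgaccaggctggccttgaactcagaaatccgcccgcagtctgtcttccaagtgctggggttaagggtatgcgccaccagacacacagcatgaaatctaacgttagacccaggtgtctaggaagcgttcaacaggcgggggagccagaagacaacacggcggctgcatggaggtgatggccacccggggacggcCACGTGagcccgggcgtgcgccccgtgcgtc

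This stretch had 61.6% G and C, and the E-box opened 31 bases before the start. The listed promoter windows of these 52 members, from 250 bases before to 50 after a start, were searched on both strands for 4 motifs that may overlap each other's letters. CACGTG was found in 13 genes, or 15 of 67 windows, against 7.15% of all windows, and among the 7 of the 10 genes that passed with a listed promoter it was found in Eef2k and Eif4h. Windows of the same gene can overlap, so the same E-box can be counted more than once, as for Eif5a. Of the listed Eef2k windows, only that of the upstream-most start held it. TGACGTCA, a cAMP response element, was found in Eef2 alone, opening at base 3 from the start, against 1.79% of all windows. GTAAACA, a forkhead motif, was found in Eif2s3y alone (3.65% of all windows), and TTGCATCA, a motif for ATF4 with its partners, in none (0.895% of all windows). A match describes letters and is not a bound site.

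The other genes that modify elongation factors were lowly expressed and did not pass. Eef1akmt1, a methyltransferase of elongation factor 1 alpha and the highest per kb of this group, was at 5.69, 5.41 and 6.05 CPM after 4 h and at 4.35, 3.97 and 4.77 CPM after 16 h. All 16 h livers were lower, without passing (-0.39 ± 0.17, edgeR adjusted p = 0.133). Eef1akmt2 had a change of -0.31 ± 0.25, and Eef2kmt, which methylates eEF2, one of -0.04 ± 0.19, with 23.0% of its exon bases in overlap. Eef1akmt4 (0.58 ± 0.35, 31.7% of exon bases in overlap) passed when 4 h replicate 3 was dropped (1.05, edgeR adjusted p = 0.0372). Its level was 2.19 CPM in that library and 1.18 and 0.772 CPM in the other 4 h livers. Mettl13, another such methyltransferase that RefSeq lists under an Eef1 symbol and the annotation used here does not, was at 10.3 ± 1.1 and 10.1 ± 1.3 CPM (-0.03 ± 0.15).

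Sums by complex show where the level of the machinery differed. The sum of the eIF4G genes was 889, 930.1 and 804 CPM after 4 h and 1122, 1174 and 1147 CPM after 16 h, a ratio of means of 1.31. For eIF4B with eIF4H the ratio was 1.29, for eIF1 with eIF1A 1.26 and for eEF2 1.24, all without overlap between groups. The gap was narrow for eIF1 with eIF1A, at most 467 CPM after 4 h and at least 471 CPM after 16 h. The ratio was 1.04 for eIF3, 1.03 for eIF2 and for eIF2B, 0.985 for eIF4A and 1.06 for eEF1, and among these the libraries overlapped except for eEF1, whose groups were narrowly apart, at most 3907 CPM after 4 h and at least 3914 CPM after 16 h. With plain totals the eEF1 groups overlapped as well. The repressors of eIF4E had a ratio of 0.941, from 369 ± 10 to 347 ± 13 CPM, with overlapping groups. Of those means Eif4ebp2 alone had 295 CPM after 4 h and 260 CPM after 16 h. The modifiers of elongation factors had the lowest ratio, 0.722, between 25.2 and 29.2 CPM after 4 h and between 17.8 and 20.9 CPM after 16 h, and Eef2k made up most of that gap. A sum over members chosen with earlier results known was given no test.

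**Figure D3:**
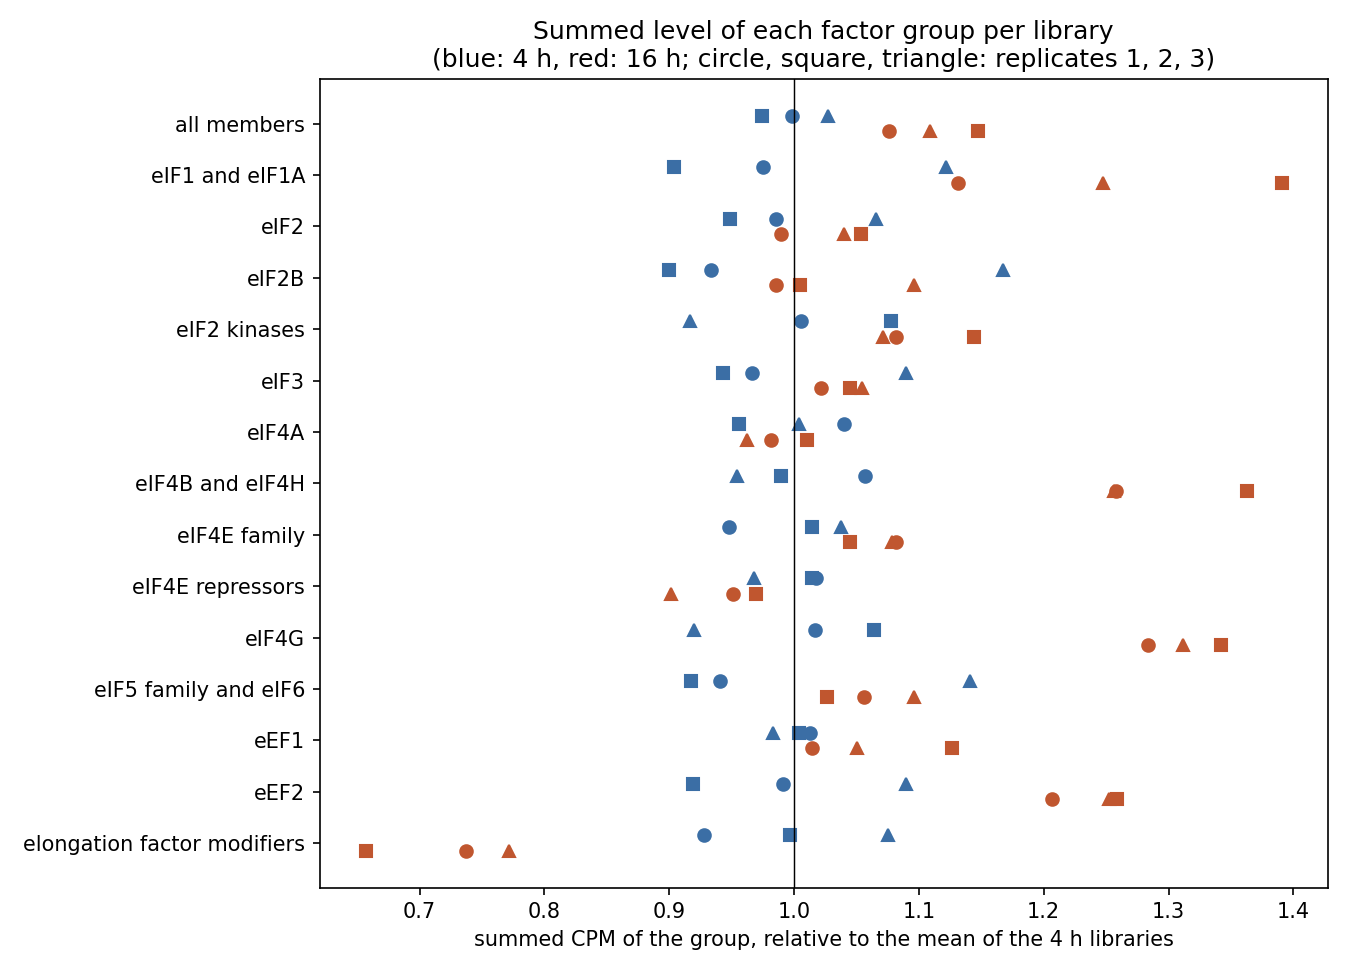
Summed CPM of each factor group in every library, divided by the mean of the 4 h libraries (x axis, vertical line at 1). Blue marks are 4 h and red marks 16 h livers, and the shape gives the replicate. The groups eIF4G, eIF4B with eIF4H and eEF2 sit to the right in all 16 h livers and the modifiers to the left, while eIF2, eIF2B, eIF3 and eIF4A overlap.

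Partners of these factors outside the symbol rule, 62 genes listed by role, gave 9 that rose and 3 that fell among 61 tested, or 19.7% called against 18.7% of all tested genes. Etf1, the release factor that reads stop codons, rose from 81.9 ± 3.5 to 111 ± 1.2 CPM (0.43 ± 0.10, edgeR adjusted p = 0.0108), and Hbs1l, which rescues stalled ribosomes, by 0.36 ± 0.10. The RNA helicases Ddx3x (0.63 ± 0.12), Dhx29 (0.50 ± 0.13) and Dhx9 (0.43 ± 0.12), which help unwind leaders of mRNAs, all rose. Larp1, the repressor of oligopyrimidine mRNAs under mTORC1, rose by 0.35 ± 0.11, Rptor, the mTORC1 subunit that binds its targets, by 0.40 ± 0.10 and the S6 kinase gene Rps6kb1 by 0.48 ± 0.11. Secisbp2, needed for selenocysteine, rose by 0.47 ± 0.11.

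Pdcd4, an inhibitor of eIF4A that S6 kinase marks for destruction, was the partner with the largest fall. It was at 136, 159 and 141 CPM after 4 h and at 92.2, 86.3 and 86.9 CPM after 16 h, with a wide gap between the groups (-0.72 ± 0.11, edgeR adjusted p = 9.95e-04). Tufm, the mitochondrial counterpart of Eef1a1, fell by 0.57 on the log2 scale, from 108 ± 19 to 72.9 ± 3.1 CPM, and Gtpbp2, a ribosome rescue GTPase, by 0.47. Neither the 6 regulators of eIF2 kinases and phosphatase nor the 8 genes that modify eIF5A and eEF2 had a member that passed. Several of these calls were lost when a single library was left out, which also left fewer samples to fit. Without 16 h replicate 1, 2 or 3 the partners that rose numbered 4, 3 and 5, and those that fell 2, 3 and 1. Of the 12 partners called, Ddx3x and Pdcd4 passed in every setting run. Among the others, Etf1 lost its call without 16 h replicate 3 (edgeR adjusted p = 0.0517), Gtpbp2 without the same library (0.0517), Tufm without 16 h replicate 1 or 3 (0.0509 and 0.0623), Rps6kb1 without 16 h replicate 2 (0.0720) and Secisbp2 without 16 h replicate 2 (0.0859). Dropping 16 h replicate 1 ended the call of Rptor (edgeR adjusted p = 0.0711), as did dropping 16 h replicate 3 (0.0760). Dhx9 lost its call without any one of the 16 h libraries (0.0851, 0.114 and 0.0653) or with plain totals (0.0556), and Dhx29 without 4 h replicate 2 (0.0537) or 16 h replicate 1 or 2 (0.0970 and 0.0805). Hbs1l and Larp1 kept theirs without 4 h replicate 3 and lost them without each of the other 5 libraries, at edgeR adjusted p of 0.0563 to 0.134 and 0.0761 to 0.121.

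The number of translation factor genes called changed when single libraries were left out, which also left fewer samples to fit. The part of the smaller sample in these counts was not tested. Without 4 h replicate 3, the library with lung transcripts, 17 rose and 1 fell, which is 28.1% of the tested members against 20.9% of all tested genes, and the median change was 0.14 against 0.00 over all tested genes. The 8 added genes were Eif1, Eif2b3, Eif3b, Eif3c, Eif4g1, Eif6, Eef2 and Eef1akmt4, named above with their values. Without 16 h replicate 1, 2 or 3 the genes that rose numbered 3, 3 and 2, and 6.25%, 6.25% and 4.69% of the members were called in either direction, against 11.7%, 9.72% and 9.71% of all tested genes. Without 4 h replicate 1 or 2 the genes that rose numbered 7 and 6. In either direction 12.5% and 10.9% of the members were called there, against 14.8% and 16.0% of all tested genes. Eif1a, Eif4ebp3 and Eef2k passed in all 11 alternative settings, and no other member did.

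**Figure D4:**
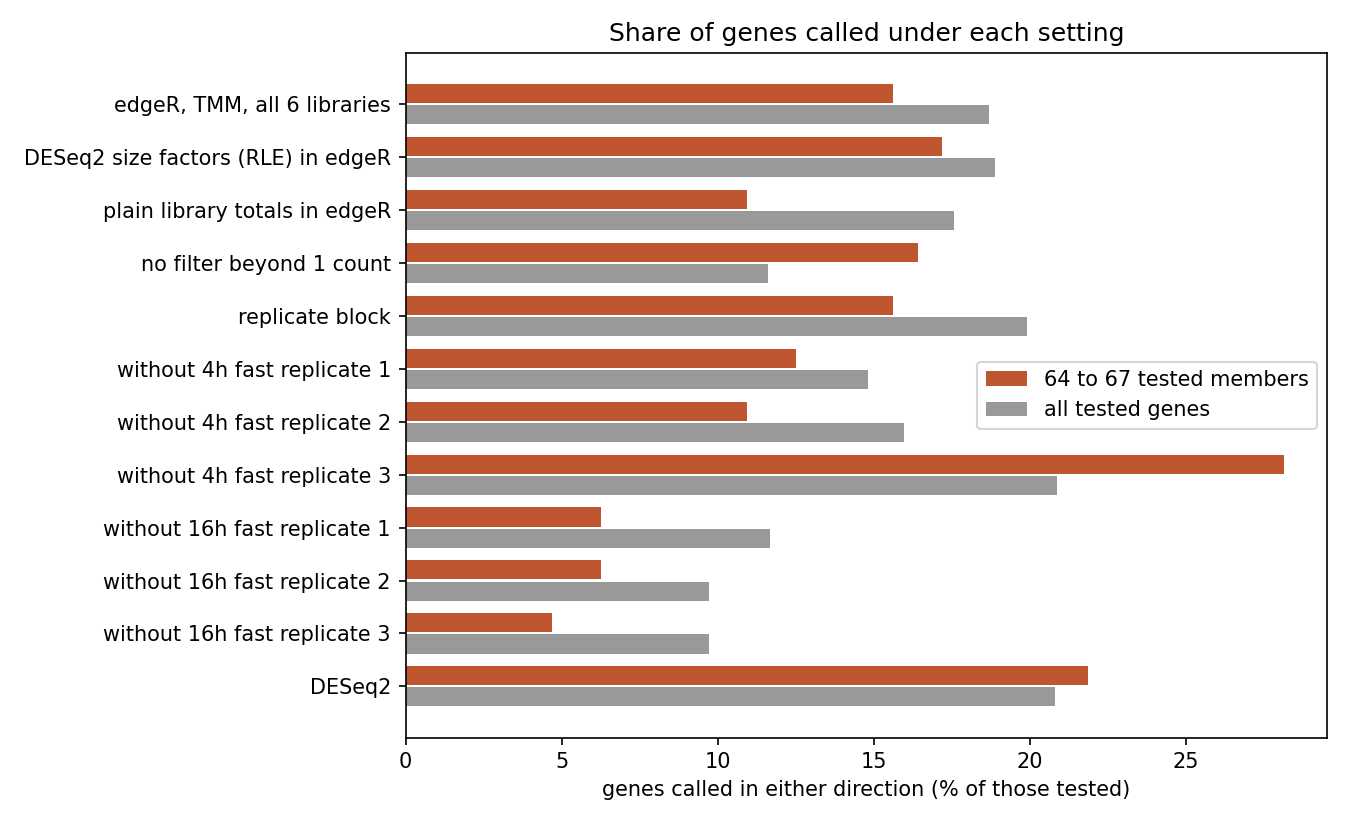
Share of tested genes called in either direction (x axis, percent) under each setting, for the translation factor genes (red) and for all tested genes (grey). The share of the members is below that of all genes in 9 of the 12 settings and is highest, at 28.1%, without 4 h replicate 3.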

How the data were processed

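Liver RNA of 6 mice was sequenced, 1 library each, 3 per fast. The authors deposited raw counts of reads for each Ensembl gene, with no normalisation; they trimmed with Trimmomatic, aligned with STAR to GRCm38 (mm10) and counted with HTSeq, per the submitters' processing notes. Versions, annotation release, strand setting and read layout: not given in the sources used here. Reads outside genes (6.44% to 7.14% of a library) and reads of more than 1 gene (5.78% to 6.59%) stayed out. Symbols, positions and overlaps came from GENCODE M21 (99.57% of identifiers matched), promoters from RefSeq. Genes kept by filterByExpr (13812) were fitted with edgeR 4.0.16 in R 4.3.3, with TMM scaling, a robust quasi-likelihood fit and the fast as its only term. Tests were 2-sided, and the script was tested on simulated data. Intervals are 95%. Alternatives were DESeq2 1.42.0, its size factors, plain totals, no filter, a replicate block and leaving out each library. Pairs of libraries within a group differed beyond counting noise (chi-square per degree of freedom 17.3 to 68.5). Any member could be named, and those called, the highest per kb in each complex and a fixed set of key members were given with every library. Members and lists were chosen with earlier results of these data known. Counting limits at 0 cover counting error only. The labels give 3 mice per fast without further detail, so p-values measure the spread between these samples. With 1 library per mouse, the parts of animals and of technical handling in that spread cannot be told apart.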

Additional observations from a re-analysis of the deposited data

How the results depend on the processing

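The single fall, Eef2k, was called in each of the 11 alternatives, while the members that rose numbered 10 with DESeq2's size factors, 6 with plain totals, 10 with no filter and 13 with DESeq2, against 9. In either direction, these settings in that order called 17.2%, 10.9%, 16.4% and 21.9% of the tested members. The shares of all tested genes were 18.9%, 17.6%, 11.6% and 20.8%. Leaving out single libraries gave 2 to 17 members that rose. For all tested genes it gave 671 to 1594 that rose and 696 to 1393 that fell, and for the partners 3 to 13 that rose and 1 to 3 that fell. Fewer samples were fitted there. Partners that rose numbered 14 with no filter, and the cause was not tested. With all genes, plain totals gave 1054 higher and 1373 lower, against 1267 and 1313. A replicate block gave 9 members that rose and 1 that fell, 9 of the 10 calls being shared: Eif4h was lost (edgeR adjusted p = 0.0510) and Eif6 gained (0.0303). The same-numbered libraries correlated at 0.0877, 0.0933 and 0.0455 in their deviations from the group means, and differently numbered ones at -0.138 to 0.0662. The highest of the latter, 16 h replicate 3 with 4 h replicate 1, was above the value of 16 h replicate 3 with its own number. The correlations were small and the labels name no pairing, so the main fit did not pair the livers by number. A weak link by number was not tested. With the block the counts for all genes were 1352 and 1396. No called member changed sign in any alternative. With 3 livers per group, changes of about 0.3 on the log2 scale lay at the edge of the test, and Eif4ebp3, Eif3j2 and Eef1akmt4 rest on few counts.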
